A study of Mus musculus with 12 samples.

Results

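The genes described here are the PERK and ATF4 branch of the integrated stress response in mouse pancreatic islets. They are 45 genes taken by name, from the kinases that start the response to the amino acid enzymes, transporters and tRNA synthetases that lie at its end. Each was found by an exact match of its symbol in the table of 24078 transcripts, all 45 were present, and all 45 passed the minimum for a test, a mean level of 0.1 RPKM across the animals. RPKM are reads relative to transcript length and library depth, so levels can be set side by side between genes.

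In this response a kinase phosphorylates the alpha subunit of the translation factor eIF2, which lowers the start of translation of most mRNAs. The mRNA of the transcription factor ATF4 is an exception, because its upstream open reading frames let it be translated more when eIF2 is limiting, and ATF4 then raises the transcription of genes for amino acid supply and of the transcription factor CHOP. PERK is the kinase that answers to unfolded protein in the endoplasmic reticulum, and beta cells, which fold large amounts of proinsulin, are known to depend on it.

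Islet RNA was sequenced from 4 wild-type (WT), 4 heterozygous (Wfs1HZ) and 4 homozygous mutant (Wfs1KO) animals, all of them male F2 hybrids of 129S6/SvEvTac and C57BL/6, 5 to 6 months old. The mutant allele, Wfs1tm1Koks, has a LacZ cassette in place of most of exon 8 of Wfs1, which encodes an endoplasmic reticulum membrane protein, and a truncated WFS1-LacZ fusion protein is still made. The allele is in the germline and not limited to islets. All islets were handpicked after collagenase digestion and kept overnight in a high-glucose medium before RNA was taken. The phosphorylation of eIF2 and the ATF4 protein were not measured, so the values describe mRNA levels only.

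Wfs1 itself was at 24.85 to 33.94 RPKM in WT, 4.69 to 16.43 RPKM in Wfs1HZ and 2.45 to 6.61 RPKM in Wfs1KO islets, and the means of 28.6, 11.1 and 4.40 RPKM follow the order of the labels. The reads behind the RPKM values, which short RNA genes reveal because 1 read is worth a fixed step there, came to 2182000 to 9561000 per animal, and 3 reads on a transcript of 2 kb were worth 0.157 to 0.688 RPKM. This estimate is well below the number of sequencing reads stated for the libraries, and the read numbers given for single members rest on it. Insulin transcripts were high in every animal (Ins2 from 6422.84 to 76686.68 RPKM), whereas the beta cell marker Mafa was listed at 0 in 10 of 12 animals. RNA of acinar cells, the enzyme-making cells of the exocrine pancreas, was present in all islet samples, and the summed level of 9 acinar transcripts ran from 8110 RPKM in Wfs1KO replicate 4 and 8683 RPKM in Wfs1HZ replicate 2 to 269023 RPKM in Wfs1KO replicate 3 and 299861 RPKM in Wfs1HZ replicate 4. Wfs1HZ replicates 2 and 4 also stood apart in their scale, with size factors of 1.386 and 0.641 by the median of ratios. In bulk islet RNA, fewer cells of a type and less RNA per cell cannot be told apart.

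The promoters of the members are shown first, because ATF4 acts with C/EBP proteins on a composite DNA element whose core was searched as TGATGNAA, or TTNCATCA when read on the other strand. RefSeq promoter windows (GRCm38.p6, 250 bases before to 50 bases after each annotated start) were found for 37 of the 45 members, with 44 windows in all, and 40 of these 44 continued into a GENCODE M21 transcript of the same gene. The core was found in 11 of the 37 members (29.7%), against 4.51% of all 27025 genes with a window, and in 11 of 44 windows (25.0%) against 3.97% of all 32851. The members were picked by name as genes of the PERK and ATF4 branch, so an excess of this core is in part built into the list. By role the core was found in the windows of 3 of 5 intracellular stress effectors, 3 of 5 tRNA synthetases and 2 of 9 amino acid enzymes. The effector group also holds Vldlr, a lipoprotein receptor of the cell surface, which is among these matches. The core was also in 1 of 6 transcription factors (Nupr1), 1 of 3 secreted factors (Fgf21) and 1 of 3 transporters (Slc7a11). It was in 0 of the 5 kinase and eIF2 alpha genes and in 0 of 1 phosphatase subunit gene (Ppp1r15a). The windows below are matches of 7 members from 5 of these roles, printed 5′ to 3′ on the strand of the gene with the core in capitals.
Asns, 23 bases before the start, chr6:7693214-7693243, minus strand: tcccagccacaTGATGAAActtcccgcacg
Pycr1, 103 bases before the start, chr11:120643833-120643862, minus strand: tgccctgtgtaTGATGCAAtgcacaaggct
Chac1, 193 bases before the start, chr2:119351038-119351067, plus strand: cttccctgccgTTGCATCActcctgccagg
Nupr1, 110 bases before the start, chr7:126625562-126625591, minus strand: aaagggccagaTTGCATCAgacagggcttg
Slc7a11, 66 bases before the start, chr3:50443661-50443690, minus strand: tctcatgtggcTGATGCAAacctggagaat
Gars, 30 bases before the start, chr6:55037960-55037989, plus strand: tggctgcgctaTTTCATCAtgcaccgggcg
Tars, 15 bases before the start, chr15:11399659-11399684, minus strand: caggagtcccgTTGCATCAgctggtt

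A match describes the letters only, and binding of ATF4 was not measured in these islets. The 11 members with the core had mean levels of 1.97 to 1050 RPKM, and the 26 members whose windows lack it had 1.88 to 218 RPKM. Their median log2 fold changes were 0.09 and 0.12 in Wfs1KO against WT, 0.23 and 0.16 in Wfs1KO against Wfs1HZ, and -0.22 and 0.00 in Wfs1HZ against WT, where 3 of the 11 and 13 of the 26 were higher. The core was in none of the windows of Ppp1r15a, Ddit4, Stc2, Shmt2, Aldh18a1 and Bcat1, the members with a window that met a criterion in one of the comparisons below.

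The levels of these genes spanned a wide range in islets. Of the 45 members 36 averaged 10 RPKM or more across the 12 animals and 8 averaged 100 RPKM or more, and 44 were above 0 in every animal. Nupr1 had the highest mean level, 1050 RPKM, and Bcat1 the lowest, 1.88 RPKM. Eif2ak4, which encodes the amino acid sensor GCN2, was the lowest of the 4 kinases in 12 of 12 animals, and Eif2ak3, which encodes PERK, was the highest in 10 of 12. Asns, asparagine synthetase, was the highest of the 11 enzymes in 12 of 12 animals, and Slc3a2, the heavy chain that carries several amino acid transporters to the membrane, was the highest of the 5 transporter genes in 12 of 12. Chac1, a glutathione-degrading enzyme, was the highest of the 5 intracellular effectors in every animal and Trib3, a pseudokinase, the lowest.

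Between Wfs1KO and WT islets the pathway as a group differed little. 28 members were higher and 17 lower in Wfs1KO, with a median log2 fold change of 0.10, beside 0.07 over all 21701 transcripts tested and 0.03 over those that averaged 1 RPKM or more, as all the members did. By limma on log2(RPKM + 0.1), 0 of 45 members had an FDR under 0.05, beside 0.0138% of all transcripts. At an unadjusted p under 0.05 there were 2 members (4.44%), Bcat1 and Ddit4, beside 5.64% of all transcripts. The animals of both genotypes did not overlap for 2 members that were higher in Wfs1KO, Bcat1 and Ppp1r15a, beside 1.75% of all transcripts, and for 0 members that were lower, beside 0.991%. With median-of-ratios scaling the members without overlap were 1 higher and 1 lower, beside 1.85% and 1.94% of all transcripts, and quantile normalization gave the same counts beside 1.54% and 2.22%. The log2 fold change lay within 1 in either direction for 43 members, and its 95% interval lay wholly within that range for 31, so a 2-fold difference is outside the interval of these 31 and not of the other 14.

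Between Wfs1KO and Wfs1HZ islets 39 members were higher and 6 lower in Wfs1KO, with a median of 0.21 beside 0.04 over all transcripts tested and 0.09 over those that averaged 1 RPKM or more. The split was 33 to 12 after median-of-ratios scaling and 28 to 17 after quantile normalization, and 26 to 19 without Wfs1HZ replicate 4. Without that animal the median of the members was 0.09. The median was then -0.20 over all transcripts tested and -0.12 over those that averaged 1 RPKM or more. By limma 0 members had an FDR under 0.05 and so had 0% of all transcripts. An unadjusted p under 0.05 was reached by 2 members, Bcat1 and Slc7a3, that is 4.44% beside 2.45% of all transcripts. The same 2 members were higher in Wfs1KO without overlap of the animals, beside 0.926% of all transcripts, and 0 members were lower without overlap, beside 0.502%.

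Between Wfs1HZ and WT islets 17 members were higher and 28 lower in Wfs1HZ, with a median of -0.10 beside 0.04 over all transcripts tested and -0.06 over those that averaged 1 RPKM or more. Again 0 members had an FDR under 0.05 by limma, beside 0% of all transcripts. An unadjusted p under 0.05 was reached by 5 members (11.1%), beside 2.35% of all transcripts. Ddit4 and Stc2 were higher and Shmt2, Aldh1l2 and Wars lower. Ddit4 and Stc2 were higher without overlap of the animals, beside 0.576% of all transcripts, and Aldh1l2, Aldh18a1 and Mars lower without overlap, beside 1.08%. After median-of-ratios scaling the members without overlap were 2 higher and 1 lower, beside 1.28% and 1.36% of all transcripts, and after quantile normalization 3 higher and 1 lower, beside 1.08% and 1.84%. Without Wfs1HZ replicate 4 the median of the members was -0.01. It was then 0.25 over all transcripts tested and 0.14 over those that averaged 1 RPKM or more. Each pair of these 3 comparisons shares the 4 animals of a genotype, so the directions in 1 comparison are not independent of those in another.

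**Figure D1:**
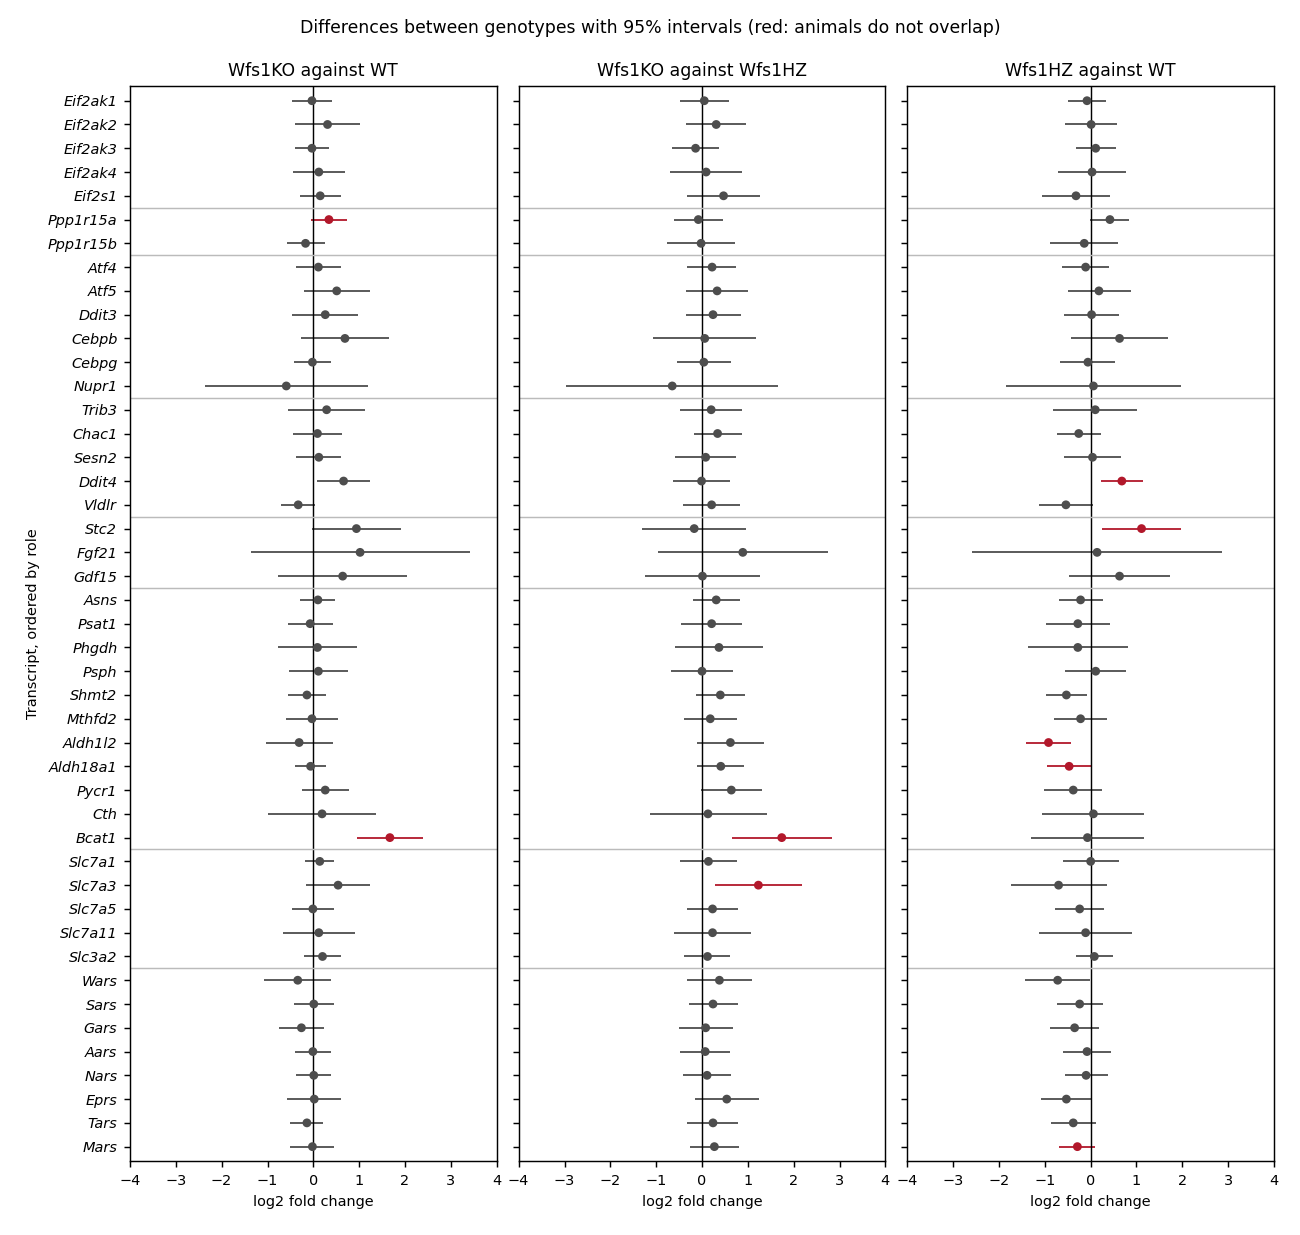
The points give the log2 fold change of each of the 45 transcripts on the log2(RPKM + 0.1) scale, the lines its 95% interval from limma, and red marks transcripts whose animals do not overlap between the genotypes. Red points are 2 for Wfs1KO against WT, 2 for Wfs1KO against Wfs1HZ and 5 for Wfs1HZ against WT, and most other intervals cross 0.

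The kinases and their substrate came first in the order of roles. Eif2ak3 (PERK) had 27.0, 22.57, 28.22 and 26.41 RPKM in the 4 WT animals, 31.37, 20.85, 32.95 and 28.54 RPKM in Wfs1HZ, and 30.86, 26.36, 25.02 and 20.55 RPKM in Wfs1KO. The 3 genotypes overlapped, and the Wfs1HZ animals held both the highest and nearly the lowest values. Its log2 fold change in Wfs1KO against WT was -0.03 (standard error 0.17, adjusted p = 0.998 by limma). It was 0.11 (standard error 0.20) in Wfs1HZ against WT and -0.14 (standard error 0.23) between Wfs1KO and Wfs1HZ, both with an adjusted p of 1 by limma. Eif2ak2, which encodes the double-stranded RNA sensor PKR, had mean levels of 17.0, 16.8 and 21.7 RPKM in WT, Wfs1HZ and Wfs1KO. Eif2ak1, the haem-regulated kinase, had 14.7, 14.0 and 14.8 RPKM, and Eif2ak4 4.23, 4.47 and 4.62 RPKM. Eif2s1, the alpha subunit that these kinases phosphorylate, was at 18.1 ± 2.08, 15.8 ± 8.06 and 20.5 ± 4.81 RPKM (SD, n = 4 each) in the same order. None of these 5 genes passed any of the criteria, and their log2 fold changes against WT lay between -0.32 and 0.31.

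The genes that end the signal are the regulatory subunits of the eIF2 alpha phosphatase. Ppp1r15a (GADD34; chromosome 7, 45522916 to 45526268), itself a target of ATF4 and CHOP, had 29.85, 29.03, 30.19 and 29.9 RPKM in WT. It had 42.35, 45.89, 43.98 and 29.3 RPKM in Wfs1HZ and 50.23, 39.33, 33.54 and 30.34 RPKM in Wfs1KO. The WT animals lay close together, the Wfs1KO animals were all above them, replicate 4 only narrowly, and the Wfs1HZ animals were above them except replicate 4. Wfs1KO exceeded WT by 0.34 on the log2 scale (standard error 0.18, adjusted p = 0.879 by limma). Its two-sided exact permutation p was 0.029, the smallest that 4 against 4 animals allow. Any member without overlap of 4 against 4 animals has this p, so it adds nothing to the lack of overlap. After median-of-ratios scaling the difference was 0.31 and the animals overlapped. In Wfs1HZ against WT it was 0.42 (standard error 0.19, adjusted p = 1). Ppp1r15b, the constitutive subunit, had mean levels of 41.3, 40.3 and 36.7 RPKM in WT, Wfs1HZ and Wfs1KO.

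Of the 6 transcription factor genes none had an unadjusted p under 0.05 or separated animals in any comparison. Atf4 had 293.44, 205.87, 175.82 and 204.98 RPKM in WT, 219.97, 193.35, 195.58 and 191.33 RPKM in Wfs1HZ, and 274.06, 224.38, 207.16 and 229.56 RPKM in Wfs1KO. WT held both the highest and the lowest animal, while 3 of the 4 Wfs1KO animals were above all Wfs1HZ animals. The log2 fold change against WT was 0.11 in Wfs1KO (standard error 0.22, adjusted p = 0.973 by limma) and -0.11 in Wfs1HZ (standard error 0.23, adjusted p = 1). The difference between Wfs1KO and Wfs1HZ was 0.22 (standard error 0.24, adjusted p = 1 by limma; exact two-sided permutation p = 0.057). Ddit3, which encodes CHOP, had 91.95, 95.9, 53.3 and 47.5 RPKM in WT, 67.25, 62.96, 84.34 and 65.99 RPKM in Wfs1HZ, and 121.76, 70.03, 56.41 and 96.12 RPKM in Wfs1KO. These values overlapped throughout, and WT fell into a higher and a lower pair of animals. GENCODE lists 2 overlapping records for Ddit3, and the longer one meets the end of Mars on the opposite strand, so reads there cannot be assigned to either gene unless strand was used, which the sources used here do not state. Atf5, a stress factor related to Atf4, had mean levels of 89.5, 99.4 and 127 RPKM in WT, Wfs1HZ and Wfs1KO, Cebpb 1.51, 2.47 and 2.65 RPKM, and Cebpg, a partner of ATF4, 103, 101 and 101 RPKM. Cebpb rests on few reads, about 3.93 to 63.3 per animal.

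Nupr1, a small stress-induced chromatin protein, varied more within genotypes than between them. It had 877.41, 558.36, 639.8 and 1550.12 RPKM in WT, 1925.96, 150.63, 680.43 and 2934.62 RPKM in Wfs1HZ, and 1133.06, 475.16, 1601.61 and 109.62 RPKM in Wfs1KO, a 26.8-fold range. The lowest animals were Wfs1KO replicate 4 and Wfs1HZ replicate 2 and the highest was Wfs1HZ replicate 4. These are also the animals with the lowest and the highest summed level of the 9 acinar transcripts. Over the 12 animals the log2 levels of Nupr1 and of that sum had a Pearson r of 0.93 (permutation p = 6e-05) and a Spearman rho of 0.81 (permutation p = 0.00228), a single relation chosen after the values had been seen. Without Wfs1HZ replicate 2 and Wfs1KO replicate 4, the animals farthest from the median of the sum, r was 0.76 over 10 animals, and after the genotype means were taken out it was 0.94. The log2 fold change of Nupr1 was -0.59 (standard error 0.79) in Wfs1KO and 0.06 (standard error 0.86) in Wfs1HZ against WT, and the part of acinar RNA in these values was not tested.

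**Figure D2:**
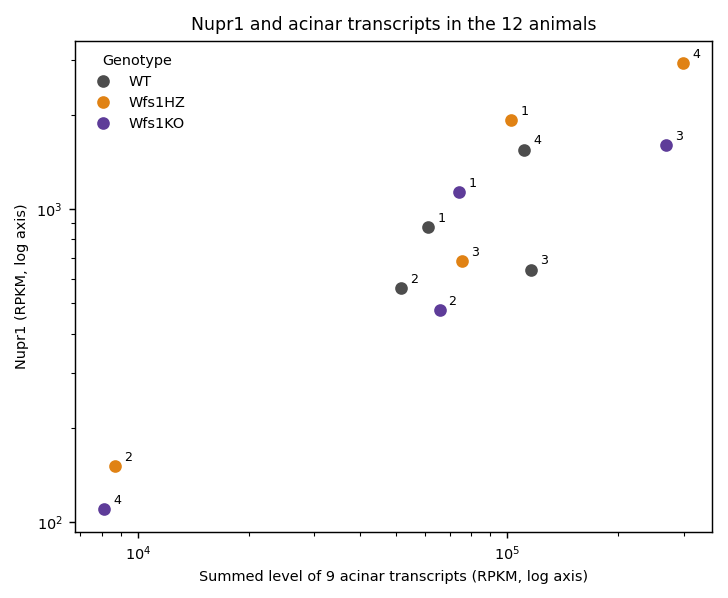
Each point is 1 animal, with the summed RPKM of 9 acinar transcripts on the horizontal log axis, Nupr1 in RPKM on the vertical log axis, colours for the genotype and the replicate number beside each point. Wfs1HZ replicate 2 and Wfs1KO replicate 4 lie at the lower left and the other 10 animals rise towards Wfs1HZ replicate 4 at the upper right, with the genotypes mixed.

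Among the intracellular effectors, a group that also holds the cell-surface receptor Vldlr, Ddit4 had the largest differences from WT. Ddit4 (REDD1; chromosome 10, 59949669 to 59951834) encodes a stress-induced inhibitor of mTORC1. It had 19.6, 20.54, 15.15 and 19.79 RPKM in WT, 28.11, 39.16, 29.78 and 24.16 RPKM in Wfs1HZ, and 42.31, 23.46, 37.92 and 20.39 RPKM in Wfs1KO. All 4 Wfs1HZ animals were above all 4 WT animals, and in Wfs1KO replicates 1, 2 and 3 were above WT while replicate 4 fell between the WT values. Its log2 fold change against WT was 0.68 in Wfs1HZ (standard error 0.21, adjusted p = 1 by limma; exact two-sided permutation p = 0.029) and 0.66 in Wfs1KO (standard error 0.26, adjusted p = 0.84 by limma; exact p = 0.057). In Wfs1HZ the animals also did not overlap after median-of-ratios scaling (0.72), after quantile normalization (0.76) and without Wfs1HZ replicates 2 and 4 (0.63). Trib3, a target of CHOP, had 17.6, 13.9, 5.81 and 6.2 RPKM in WT, 15.25, 13.0, 6.97 and 8.38 RPKM in Wfs1HZ, and 13.73, 11.96, 8.94 and 13.67 RPKM in Wfs1KO. WT spanned both ends of the range, and the log2 fold change in Wfs1KO was 0.29 (standard error 0.37, adjusted p = 0.948 by limma). Chac1 had mean levels of 65.3, 53.9 and 69.6 RPKM in WT, Wfs1HZ and Wfs1KO, and Sesn2, a leucine-sensing inhibitor of mTORC1, 30.4, 32.5 and 33.3 RPKM. Vldlr, a lipoprotein receptor, was 28.0 ± 3.05, 20.1 ± 6.53 and 22.3 ± 3.10 RPKM (SD, n = 4 each), and its log2 fold change was -0.54 (standard error 0.27) in Wfs1HZ and -0.33 (standard error 0.16) in Wfs1KO against WT, each with an exact two-sided permutation p of 0.057.

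The secreted stress factors were low and variable. Stc2 (stanniocalcin 2; chromosome 11, 31357307 to 31370074), a secreted glycoprotein, had 2.9, 2.97, 3.42 and 4.5 RPKM in WT, 6.27, 16.14, 6.25 and 4.85 RPKM in Wfs1HZ, and 7.79, 6.93, 12.84 and 2.69 RPKM in Wfs1KO. All Wfs1HZ animals were above all WT animals, whereas Wfs1KO held 3 animals above WT and the lowest of the 12. On the log2 scale Wfs1HZ exceeded WT by 1.11 (standard error 0.39, adjusted p = 1 by limma; exact two-sided permutation p = 0.029) and Wfs1KO exceeded it by 0.94 (standard error 0.43, adjusted p = 0.879; exact p = 0.143). The markers of stromal and endothelial cells were also higher in Wfs1HZ than in WT, with 5 of 6 stromal transcripts higher (median log2 fold change 0.85, but 3 of 6 and 0.01 without Wfs1HZ replicate 2) and 5 of 5 endothelial transcripts (median 0.74), the comparison in which Ddit4 and Stc2 did not overlap. Their sums overlapped between these genotypes, with 17.7 to 53.5 RPKM in WT and 12.0 to 341 RPKM in Wfs1HZ for stromal and 25.6 to 80.0 RPKM and 27.3 to 132 RPKM for endothelial transcripts. Wfs1HZ replicate 2, the highest animal for Stc2, also had the highest summed level of the 6 stromal transcripts, 341 RPKM against 12.0 to 122 RPKM in the other 11 animals. The part of stromal and endothelial RNA in Ddit4 and Stc2 was not tested. Without Wfs1HZ replicate 2 the difference was 0.74, and the animals still did not overlap. Fgf21, a hormone, had mean levels of 1.88, 1.64 and 2.38 RPKM in WT, Wfs1HZ and Wfs1KO from 0 to 26.8 reads per animal, and was listed at 0 in WT replicate 3. Gdf15, a stress cytokine, had 7.74 ± 5.87, 11.1 ± 5.23 and 13.0 ± 9.51 RPKM (SD, n = 4 each), so its differences were within the spread between animals.

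Bcat1 had the largest log2 fold change of the 45 genes between Wfs1KO and the other genotypes at the pseudocount of 0.1, whereas at 0.01 Fgf21 was above it against WT (1.83 and 1.76). Bcat1 (chromosome 6, 144993835 to 145076184) encodes the cytosolic aminotransferase of branched-chain amino acids. It had 1.14, 0.77, 0.88 and 1.36 RPKM in WT, 1.39, 1.56, 0.85 and 0.44 RPKM in Wfs1HZ, and 4.55, 3.94, 2.7 and 2.94 RPKM in Wfs1KO. The 4 Wfs1KO animals were above all 8 others, and WT and Wfs1HZ overlapped. Wfs1KO was higher by 1.67 on the log2 scale than WT (standard error 0.32, adjusted p = 0.435 by limma) and by 1.74 than Wfs1HZ (standard error 0.50, adjusted p = 1), with a two-sided exact permutation p of 0.029 in each. With edgeR on counts, the authors listed Bcat1 as higher in Wfs1KO at an FDR under 0.05 in both comparisons. The Wfs1KO animals stayed apart from both other genotypes under each of the alternatives tried. The level corresponds to about 17.3 to 341 reads per animal. Neither of its 2 RefSeq promoter windows held the core described above.

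Markers of stromal and endothelial cells moved in the same direction as Bcat1 and Ppp1r15a between Wfs1KO and WT. Of the other lists, 4 of 6 immune cell transcripts were higher in Wfs1KO. Lower were 7 of 9 acinar, 4 of 5 beta, 3 of 5 duct and 3 of 5 alpha, delta and PP cell transcripts. Of the 6 stromal transcripts 5 were higher in Wfs1KO, and their sum was 17.7 to 53.5 RPKM in WT and 54.7 to 122 RPKM in Wfs1KO, without overlap as deposited and with overlap after median-of-ratios scaling (19.3 to 52.6 and 50.5 to 101 RPKM). All 5 endothelial transcripts were higher, with sums of 25.6 to 80.0 RPKM in WT and 72.8 to 89.5 RPKM in Wfs1KO that overlapped as deposited and did not after median-of-ratios scaling (29 to 72.3 and 74.5 to 89.6 RPKM). None of these 11 transcripts was listed at 0 in any animal. In Wfs1HZ the stromal sum was 12.0 to 341 RPKM and the endothelial sum 27.3 to 132 RPKM, while Bcat1 stayed at or below 1.56 RPKM. The part of these cells in the levels of Bcat1 and Ppp1r15a was not tested.

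Asns had 182.61, 145.92, 141.25 and 145.76 RPKM in WT, 144.13, 135.47, 150.06 and 103.02 RPKM in Wfs1HZ, and 178.91, 161.14, 146.88 and 169.2 RPKM in Wfs1KO. It is the enzyme whose promoter is the classic place of the ATF4 element, printed above. Its SD within genotypes was 0.19 on the log2 scale, and 3 of the 4 Wfs1KO animals were above all Wfs1HZ animals, a difference of 0.31 (standard error 0.23, adjusted p = 1 by limma; exact two-sided permutation p = 0.057). Against WT it was 0.10 (standard error 0.17, adjusted p = 0.968).

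Of the one-carbon enzymes Aldh1l2 and Shmt2 had the largest differences between Wfs1HZ and WT. Aldh1l2 (chromosome 10, 83487450 to 83534140), the mitochondrial formyltetrahydrofolate dehydrogenase, had 32.73, 28.62, 20.14 and 29.02 RPKM in WT and 15.59, 11.19, 17.31 and 13.79 RPKM in Wfs1HZ, without overlap. In Wfs1KO it had 27.93, 33.73, 21.07 and 11.67 RPKM, with replicates 1, 2 and 3 above all Wfs1HZ animals and replicate 4 among them. The difference in Wfs1HZ was -0.92 on the log2 scale (standard error 0.22, adjusted p = 1 by limma; exact two-sided permutation p = 0.029), and -0.88 with overlap after median-of-ratios scaling. Shmt2 (chromosome 10, 127517123 to 127522444), the mitochondrial enzyme that takes a one-carbon unit from serine, had 46.29, 45.63, 38.83 and 40.85 RPKM in WT, 29.26, 24.0, 39.52 and 27.45 RPKM in Wfs1HZ, and 44.69, 44.81, 40.67 and 28.08 RPKM in Wfs1KO. In Wfs1HZ replicates 1, 2 and 4 were below all WT animals and replicate 3 was not. Their difference was -0.53 (standard error 0.20, adjusted p = 1 by limma; exact two-sided permutation p = 0.057). It was -0.33 without Wfs1HZ replicates 2 and 4. Mthfd2, the next enzyme of that pathway in mitochondria, had mean levels of 36.9, 31.4 and 35.8 RPKM in WT, Wfs1HZ and Wfs1KO. The serine synthesis enzymes Phgdh, Psat1 and Psph had WT means of 2.58, 73.5 and 30.0 RPKM, and their log2 fold changes over the 3 comparisons lay between -0.28 and 0.37.

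Aldh18a1 (chromosome 19, 40550257 to 40588463), which makes the precursor of proline, had 20.09, 25.31, 19.86 and 20.34 RPKM in WT, 12.94, 19.16, 18.66 and 12.09 RPKM in Wfs1HZ, and 20.76, 22.27, 18.01 and 20.93 RPKM in Wfs1KO. All Wfs1HZ animals were below all WT animals, Wfs1HZ replicate 2 only narrowly. The difference was -0.47 (standard error 0.22, adjusted p = 1 by limma; exact two-sided permutation p = 0.029), and the animals overlapped after median-of-ratios scaling (-0.42). Pycr1, which completes proline synthesis, had 5.19 ± 0.925, 3.98 ± 0.911 and 6.25 ± 1.23 RPKM (SD, n = 4 each) in WT, Wfs1HZ and Wfs1KO, and its difference between Wfs1KO and Wfs1HZ was 0.64 (standard error 0.30, adjusted p = 1 by limma; exact two-sided permutation p = 0.057). Cth, which makes cysteine, had means of 3.10, 3.29 and 3.90 RPKM. Of the 11 enzymes 9 were lower in Wfs1HZ than in WT, with a median of -0.28 (9 with median-of-ratios scaling, 10 with quantile normalization). Without Wfs1HZ replicate 4 the median of the enzymes was -0.06, beside 0.25 over all transcripts tested. Over transcripts that averaged 1 RPKM or more the median was -0.06 with every animal and 0.14 without that replicate. Between Wfs1KO and Wfs1HZ 11 enzymes were at 0 or above, with a median of 0.37, and 10 and 9 were higher after those scalings. Against WT 6 were higher and 5 lower in Wfs1KO.

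Slc7a3 was the transporter gene with the largest differences between genotypes. It lies on chromosome X (101079210 to 101086020) and encodes a transporter of cationic amino acids. It had 8.28, 4.08, 4.04 and 8.08 RPKM in WT, 5.79, 1.53, 3.14 and 5.44 RPKM in Wfs1HZ, and 9.02, 11.2, 7.97 and 6.25 RPKM in Wfs1KO. All Wfs1KO animals were above all Wfs1HZ animals, while both groups overlapped with WT. The difference was 1.23 on the log2 scale (standard error 0.43, adjusted p = 1 by limma; exact two-sided permutation p = 0.029), and it was 1.15 with overlap after median-of-ratios scaling and 0.85 without Wfs1HZ replicate 2. It rests on about 7.91 to 204 reads per animal. Its relative Slc7a1 had mean levels of 30.3, 31.9 and 33.2 RPKM in WT, Wfs1HZ and Wfs1KO. Slc7a5, the large neutral amino acid transporter, had 63.2, 54.1 and 62.8 RPKM, and its partner Slc3a2 103, 109 and 119 RPKM. Slc7a11, which brings in cystine, had 11.5, 10.8 and 11.6 RPKM, and none of these 4 passed a criterion.

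The 8 tRNA synthetase genes, whose products charge tRNAs with amino acids, had their lowest means in Wfs1HZ. All 8 were lower in Wfs1HZ than in WT, with log2 fold changes of -0.72 to -0.08 and a median of -0.32, while quantile normalization turned 2 of them and leaving out Wfs1HZ replicate 4 turned 1. All 8 were higher in Wfs1KO than in Wfs1HZ, by 0.07 to 0.54, but 5 were after quantile normalization and 6 without Wfs1HZ replicate 4. Both comparisons use the same Wfs1HZ animals, and none of the 8 passed an FDR of 0.05. Wfs1KO against WT gave a median of -0.01, with values between -0.34 and 0.02, and of -0.12 after quantile normalization. Mars (chromosome 10, 127296221 to 127311786), for methionine, had 40.89, 43.44, 35.93 and 34.53 RPKM in WT, 33.68, 31.75, 34.52 and 26.5 RPKM in Wfs1HZ, and 43.83, 52.19, 30.38 and 29.97 RPKM in Wfs1KO. The WT and Wfs1HZ animals did not overlap, but the nearest pair was all but equal. The difference was -0.29 (standard error 0.18, adjusted p = 1 by limma; exact two-sided permutation p = 0.029), and -0.25 with overlap after median-of-ratios scaling.

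Wars (chromosome 12, 108860030 to 108894174), for tryptophan, had 42.82, 19.85, 24.37 and 39.89 RPKM in WT, 21.54, 11.94, 16.97 and 25.14 RPKM in Wfs1HZ, and 28.92, 29.05, 26.96 and 14.14 RPKM in Wfs1KO. WT replicates 1 and 4 were above all other animals, and the genotypes overlapped. Wfs1HZ against WT gave -0.72 on the log2 scale (standard error 0.32, adjusted p = 1 by limma; exact two-sided permutation p = 0.143). In each genotype the animal with the lowest Wars was also the one with the lowest summed level of the 6 beta cell markers, which was 31951 RPKM in WT replicate 2, 12473 RPKM in Wfs1HZ replicate 2 and 22258 RPKM in Wfs1KO replicate 4. The same animals also had the lowest acinar and duct cell sums of their genotype. Their summed level of alpha, delta and PP cell markers was the highest of their genotype (193835, 168696 and 240418 RPKM). The part of any of these cells in Wars was not tested. Nars was the most abundant of the 8, with means of 157, 147 and 158 RPKM in WT, Wfs1HZ and Wfs1KO. Eprs had 112, 79.6 and 118 RPKM, Gars 90.7, 72.4 and 76.6 RPKM, Sars 65.3, 55.9 and 65.6 RPKM, Aars 60.2, 58.1 and 59.9 RPKM, and Tars 43.2, 34.2 and 39.5 RPKM.

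The lower values of Wfs1HZ moved with the choice of animals and with the scaling. For Wfs1HZ against WT, the median of the members minus that of all transcripts tested was -0.14 with every animal kept. Leaving out replicate 2 of Wfs1HZ brought this gap to -0.01, whereas leaving out replicate 4 instead brought it to -0.26. Between Wfs1KO and Wfs1HZ the gap was 0.17 with every animal, 0.02 after the first omission and 0.29 after the second. The transcripts that averaged 1 RPKM or more, as all members did, had other medians than all transcripts tested. In the same order they were -0.06, -0.19 and 0.14 for Wfs1HZ against WT, where the members had -0.10, -0.20 and -0.01. Between Wfs1KO and Wfs1HZ they were 0.09, 0.23 and -0.12, where the members had 0.21, 0.30 and 0.09. Wfs1HZ replicate 4, the animal with the most acinar RNA, was the lowest of the 12 animals for 22 of 45 members, and for 44.4% of the 13357 transcripts that averaged 1 RPKM or more. After median-of-ratios scaling the lowest animal was Wfs1HZ replicate 2, for 19 of 45 members against 20.3% of those transcripts, and Wfs1HZ replicate 4 was lowest for 5. The part of acinar RNA in the members' values was not tested.

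**Figure D3:**
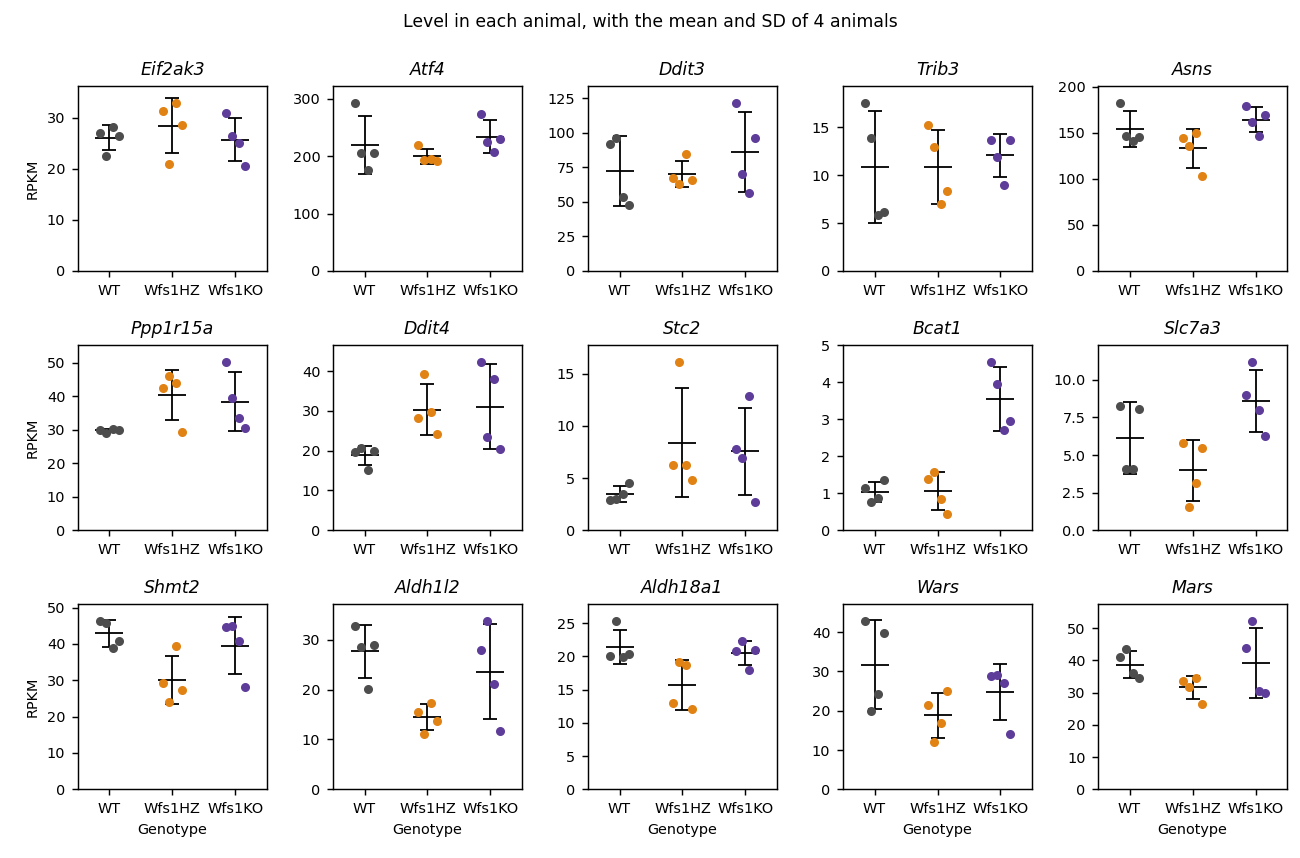
RPKM of 15 members in each animal, by genotype, with the mean and SD of 4 animals as lines and an axis from 0 in each panel. In the Bcat1 panel the Wfs1KO points (2.7 to 4.55 RPKM) are above all others, in the Ddit4 and Stc2 panels all Wfs1HZ points are above the WT points, and in the Eif2ak3, Ddit3 and Trib3 panels the 3 genotypes overlap.

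Other genes of the pathway, 47 in number and none of them among the 45, were set beside the members. None had an FDR under 0.05 by limma in any of the 3 comparisons. At an unadjusted p under 0.05 there were 3 in Wfs1KO against WT, beside 5.64% of all transcripts. There was 1 in Wfs1KO against Wfs1HZ, beside 2.45%, and 1 in Wfs1HZ against WT, beside 2.35%, where the members had 5 of 45. In Wfs1KO against WT 0 genes were lower without overlap of the animals, beside 0.991% of all transcripts. The animals did not overlap for 2 genes that were higher in Wfs1KO than in WT, beside 1.75%. They were Tnfrsf10b, a death receptor regulated by CHOP, with 9.08 to 13.72 RPKM in WT and 13.76 to 25.14 RPKM in Wfs1KO, and Shmt1, the cytosolic relative of Shmt2, with 1.58 to 3.85 RPKM and 4.16 to 5.28 RPKM. Their log2 fold changes were 0.76 (standard error 0.22) and 0.68 (standard error 0.30), with adjusted p of 0.835 and 0.879 by limma. Gpt2, a mitochondrial alanine aminotransferase, was at -0.54 on the log2 scale in Wfs1KO against WT (standard error 0.22, adjusted p = 0.872). Herpud1, a factor in the degradation of endoplasmic reticulum proteins, had mean levels of 101 RPKM in Wfs1KO and 61.5 RPKM in Wfs1HZ, a log2 difference of 0.69 (standard error 0.25, adjusted p = 1). The other 13 tRNA synthetase genes had a median of -0.34 in Wfs1HZ against WT, with 10 lower and 3 higher (9 and 4 after quantile normalization). Farsb, with 48.42 to 65.19 RPKM in WT and 31.25 to 48.24 RPKM in Wfs1HZ, and Rars, with 67.77 to 83.14 RPKM and 45.78 to 66.5 RPKM, were lower without overlap, beside 1.08% of all transcripts. In that comparison 0 of the 47 genes were higher without overlap, beside 0.576%. The 10 genes of eIF2, its exchange factor eIF2B and their regulators had median log2 fold changes of -0.02 in Wfs1KO and -0.05 in Wfs1HZ against WT. Of these 47 genes, also picked by name for the pathway, 33 had a promoter window, and 9 of the 33 (27.3%) held the core.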

How the data were processed

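Islet RNA of 12 mice was sequenced, 4 of each genotype, and genotypes and replicate numbers were taken from the sample labels. The authors made cDNA from total RNA, sequenced it on a SOLiD instrument with 75 bp forward and 35 bp reverse reads, mapped it to mm10, tested counts with edgeR and deposited RPKM values, 1 column per animal. The counting tool and annotation are not given in the sources used here. RPKM are not counts, so log2(RPKM + 0.1) was fitted with limma (version 3.58.1 in R 4.3.3) for each pair of genotypes, with a variance trend. The FDR is the Benjamini-Hochberg value over the 21701 transcripts whose mean reached 0.1 RPKM. Fold changes on this scale understate the change of low transcripts. For single members the difference of mean log2 values was also tested by exact permutation, two-sided. For members without overlap this p is always 0.029, so there it restates the lack of overlap and is no separate evidence. Animals with the same replicate number are different animals. The procedure was tested on simulated data. Coordinates come from GENCODE M21 (GRCm38, the same build as mm10), and promoter windows from RefSeq.

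The members and gene lists were chosen with earlier results of these data known. Values in every animal are given for members with an unadjusted p under 0.05 or no overlap of the animals in any comparison, and for Eif2ak3, Atf4, Ddit3, Trib3, Asns and Ppp1r15a. Nupr1 and the values of other cell types beside single members were chosen after their values were seen. Other pathway genes were named by the same rule. Alternatives were pseudocounts of 1 and 0.01, no filter or a mean of at least 1 RPKM, median-of-ratios and quantile scaling, all 12 animals in a single fit, sample weights, a variance without trend, the omission of each animal, and a block for the replicate number. Leaving out both Wfs1HZ replicates 2 and 4 was chosen after seeing the data. Depth was estimated from genes under 200 nt, where 96.8% to 100.0% of values per animal were whole reads within 0.1 read, and covers counting error only.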

Additional observations from a re-analysis of the deposited data

Results flagged for a closer look

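In each genotype and for each of the 45 members the highest and lowest animals were compared with the other 3, which made 135 groups. In 7 of them 1 animal stood farther from the rest than the 95% limit for 4 values allows, and chance gives about 1 in 20 groups, or 6.8. The low ones were Eif2ak1 in Wfs1HZ (replicate 4, 11.42 RPKM against 14.69 to 15.17 RPKM in the others), Ddit4 in WT (replicate 3, 15.15 RPKM against 19.6 to 20.54 RPKM), Slc7a1 in Wfs1KO (replicate 3, 29.08 RPKM against 34.26 to 35.23 RPKM) and Wars in Wfs1KO (replicate 4, 14.14 RPKM against 26.96 to 29.05 RPKM). The high ones were Atf4 in Wfs1HZ (replicate 1, 219.97 RPKM against 191.33 to 195.58 RPKM), Asns in WT (replicate 1, 182.61 RPKM against 141.25 to 145.92 RPKM) and Aldh18a1 in WT (replicate 2, 25.31 RPKM against 19.86 to 20.34 RPKM).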

How the results depend on the processing

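The number of members with an FDR under 0.05 was 0 in all 3 comparisons under each of the alternatives run. At an unadjusted p under 0.05 sample weights gave 6, 9 and 9 members for Wfs1KO against WT, Wfs1KO against Wfs1HZ and Wfs1HZ against WT, beside 9.52%, 10.3% and 7.09% of all transcripts. A variance without trend gave 1 for the first and 3 for the last, beside 5.64% and 2.36%. Median-of-ratios scaling and quantile normalization each gave 1 for Wfs1KO against Wfs1HZ, beside 3.66% and 4.27%. Median-of-ratios scaling left 1 member without overlap between Wfs1KO and Wfs1HZ (1 higher and 0 lower, beside 0.88% and 1.18% of all transcripts). It left 3 between Wfs1HZ and WT (2 higher and 1 lower, beside 1.28% and 1.36%). Without both Wfs1HZ replicates 2 and 4, where fewer animals make overlap rarer, these numbers were 5 (4 higher and 1 lower, beside 6.06% and 4.1% of all transcripts) and 12 (5 and 7, beside 5.59% and 4.9%).

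When single animals were left out, the count at an unadjusted p under 0.05 ranged from 1 to 6 for Wfs1KO against WT (1 without WT replicate 3 or Wfs1KO replicate 1, 6 without Wfs1KO replicate 4). It ranged from 1 to 5 for Wfs1KO against Wfs1HZ (1 without Wfs1KO replicate 2, 4 without Wfs1HZ replicate 2, 5 without Wfs1KO replicate 4) and from 3 to 8 for Wfs1HZ against WT (3 without WT replicate 1, 8 without Wfs1HZ replicate 2). The shares of all transcripts were 4.23% to 8.62%, 1.57% to 6.03% and 1.41% to 5.01%. Members without overlap ranged from 2 to 6 (4 without WT replicate 1 or Wfs1KO replicate 3, 6 without Wfs1KO replicate 4), from 2 to 6 (6 without Wfs1KO replicate 3 or 4) and from 5 to 9 (9 without Wfs1HZ replicate 2, 8 without Wfs1HZ replicate 4). Of all transcripts 2.37% to 5.11%, 1.12% to 4.78% and 0.834% to 3.98% were higher without overlap, and 1.22% to 3.89%, 0.71% to 2.9% and 1.26% to 3.91% lower. The median log2 fold change of the members ranged from -0.001 to 0.16, from 0.09 to 0.30 and from -0.23 to -0.01. Over all transcripts tested it ranged from 0.0015 to 0.18, from -0.20 to 0.28 and from -0.19 to 0.25.

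With the replicate number as a replicate block, 9 members had an unadjusted p under 0.05 between Wfs1HZ and WT (3.94% of all transcripts), 2 between Wfs1KO and WT (5.03%) and 2 between Wfs1KO and Wfs1HZ (1.82%). Deviations of animals with the same number correlated between -0.174 and 0.228. In Wfs1HZ against WT, Wfs1HZ replicates 1, 2 and 4 correlated at 0.072, 0.228 and 0.21 with the same number. Their highest correlations with another number were 0.055, 0.132 and 0.099. Wfs1HZ replicate 3 had -0.054 with the same number and at most 0.129 with another. The numbers were not taken to pair the animals, and whether they do in that comparison was not tested. The cause of these changes in the counts was not tested. Depth limits the members with few reads, above all Fgf21 and Cebpb.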
